A study of Mus musculus with 8 samples.

Results

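The retinoid X receptor genes Rxra, Rxrb and Rxrg were examined through the histone marks called over them in mouse haematopoietic stem cells (HSCs). The 3 genes were taken with 20 kb on each side, and every called peak that overlapped a window was included, which gave 243 of the 867023 peaks in all 8 libraries. The tested cells were RXRKO HSCs, in which Vav-Cre, a recombinase expressed across blood cells, had deleted Rxra and Rxrb (genotype label VavCre+; RxRa delta/delta; RxRb delta/delta). The controls were WT HSCs with intact Rxra and Rxrb. The WT genotype labels name VavCre+ whereas the design text names the floxed alleles without Cre, and the sources used here do not settle it. All mice were C57BL/6 and about 10 months old, cells of 4 or 5 mice were pooled, and 7500 cells sorted as Lin-cKit+Sca1+CD48-CD150+ went into each assay. CUT&RUN, which releases the DNA around an antibody-bound mark with a tethered nuclease, mapped H3K4me1 in 2 RXRKO and 2 WT libraries. It mapped H3K4me3 and H3K27ac in 1 RXRKO and 1 WT library each.

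Retinoid X receptors are nuclear receptors that bind DNA as dimers, mostly with another receptor such as a retinoic acid, thyroid hormone, vitamin D, liver X or PPAR receptor. They bind repeats of the hexamer AGGTCA and recruit coactivators or corepressors that alter histone marks nearby. Rxra and Rxrb are transcribed in many tissues including blood, whereas Rxrg is best known from muscle and brain and was not targeted here. H3K4me3 marks gene starts, H3K4me1 marks enhancers and the flanks of starts, and H3K27ac marks active starts and enhancers.

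Across the lists, H3K4me1 comprised 147698 and 165128 peaks in RXRKO replicates 1 and 2, and 149377 and 159713 in WT replicates 1 and 2. H3K4me3 comprised 58136 peaks in RXRKO and 47835 in WT, and H3K27ac 64849 in RXRKO and 74287 in WT. Read totals were not used here, so sequencing depth is unknown here and counting error could not be given. Of the HSC and progenitor markers fixed for this check, all 6 with an annotated start (Kit, Slamf1, Procr, Fgd5, Mecom and Hlf) carried H3K4me3 within 1 kb of a start in both genotypes. H3K27ac was called at 4 of these 6 in RXRKO and at 5 of 6 in WT. Over all genes with an annotated start, H3K4me3 was called in 67.7% in RXRKO and 67.1% in WT, and H3K27ac in 58.6% and 61.6%. The T, B and myeloid markers Cd3e, Cd8a, Cd79a, Itgam and Ly6g carried neither mark at a start in either genotype. Cd48, whose product the sort excluded, had H3K4me3 in RXRKO alone and H3K27ac in both genotypes.

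The starts of the 3 genes differed in sequence, and the bases before them are shown to set starts with marks beside starts without them. The sequences come from RefSeq (GRCm38.p6, the assembly of mm10), plus strand, and CG dinucleotides are in capitals. The Rxrb line is the whole stretch between its start and the start of the neighbouring gene on the other strand.
Rxra first start, chr2:27676951-27677200: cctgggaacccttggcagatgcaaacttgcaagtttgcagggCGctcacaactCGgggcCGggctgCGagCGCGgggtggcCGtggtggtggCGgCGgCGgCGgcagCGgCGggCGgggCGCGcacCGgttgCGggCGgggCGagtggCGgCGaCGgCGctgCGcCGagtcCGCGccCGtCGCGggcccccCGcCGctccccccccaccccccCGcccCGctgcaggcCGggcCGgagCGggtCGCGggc
Rxrb first start, chr17:34031691-34031811: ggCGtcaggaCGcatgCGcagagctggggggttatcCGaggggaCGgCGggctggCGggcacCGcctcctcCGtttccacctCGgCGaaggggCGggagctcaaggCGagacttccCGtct
Rxrg first start, chr1:167598112-167598361: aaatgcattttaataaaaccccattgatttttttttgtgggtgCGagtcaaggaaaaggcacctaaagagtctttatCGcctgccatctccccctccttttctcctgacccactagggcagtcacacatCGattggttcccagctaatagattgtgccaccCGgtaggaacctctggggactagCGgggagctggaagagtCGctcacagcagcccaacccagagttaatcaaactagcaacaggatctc
Rxra second start, chr2:27709042-27709291: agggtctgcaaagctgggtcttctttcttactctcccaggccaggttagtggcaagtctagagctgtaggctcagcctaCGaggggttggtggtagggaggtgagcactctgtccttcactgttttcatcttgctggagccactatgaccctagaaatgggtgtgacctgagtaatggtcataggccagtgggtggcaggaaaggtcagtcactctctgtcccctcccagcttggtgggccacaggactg
Rxrg second start, chr1:167618015-167618264: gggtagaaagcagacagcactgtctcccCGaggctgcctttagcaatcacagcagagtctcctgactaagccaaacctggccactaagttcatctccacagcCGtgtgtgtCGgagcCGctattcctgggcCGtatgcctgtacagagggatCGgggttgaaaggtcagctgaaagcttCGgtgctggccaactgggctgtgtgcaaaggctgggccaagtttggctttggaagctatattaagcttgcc

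The 250 bases before the first Rxra start held 40 CG dinucleotides at 81.2% G and C, a CG count above 98.3% of the 21045 annotated starts of protein-coding genes. The 250 bases before the first Rxrb start held 31 at 69.2%, and those before the first Rxrg start held 6 at 49.2%. Over all starts the median CG count was 16 where both H3K4me3 libraries had a peak within 1 kb and 2 where neither had one. All 3 first starts had H3K4me3 and H3K27ac in both genotypes, against a background of 67.7% of genes with H3K4me3 at a start in RXRKO and 67.1% in WT. For H3K27ac that background was 58.6% in RXRKO and 61.6% in WT. The second Rxra start, with 1 CG dinucleotide, and the second Rxrg start, with 7, had neither mark within 1 kb in any library. The second Rxrb start, at 34032350 within the gene, had both marks within 1 kb in both genotypes. The 250 bases before it held 39 CG dinucleotides at 82.4% G and C. Its window, from 34031350 to 34033350, also holds the first Rxrb start at 34031812, so its calls are not separate from those there. The base 34032350 itself lay in an H3K4me3 peak in both genotypes and in an H3K27ac peak in neither. The CG count did not separate the marked from the unmarked Rxrg start. The hexamer AGGTCA, searched on both strands, occurred 2 times before the second Rxra start and 1 time before the second Rxrg start, and in 12.8% of all such windows. It was not found in the 250 bases before the first start of any of the 3 genes or before the second Rxrb start. The direct repeat of AGGTCA, any 1 base and AGGTCA again, which contains that hexamer 2 times, was in none of the member windows and in 0.0428% of all windows. The GC box GGGCGG occurred 3 times before the first Rxra start, 2 times in the 250 bases before the first Rxrb start, 3 times before the second, and not before the Rxrg starts, with a match in 43.1% of all windows.

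Rxrb encodes retinoid X receptor beta and lies on chromosome 17 from 34031812 to 34038403. Within it, the RXRKO peaks of all 3 marks stopped at almost the same base. Both RXRKO H3K4me1 libraries had a peak end at 34033515, while H3K27ac ended at 34033514 and H3K4me3 at 34033497 in RXRKO, a span of 18 bp. The WT H3K4me1 peaks ran on to 34034296 and 34034306. The 781 bp from 34033516 to 34034296 were therefore under a peak in each WT H3K4me1 library but in none of the RXRKO libraries. The stretch begins 1704 bp after the first start. The WT H3K4me3 peak ended earlier, at 34033069, and the WT H3K27ac peak at 34032305, so these marks carry no comparison beyond the edge.

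A WT-only stretch of at least 500 bp in the gene body occurred in 0.735% of the 21631 genes, and a RXRKO-only stretch of that length in 0.781%. Stretches as long as that of Rxrb or longer occurred in 31 genes, or 0.143%. A shared edge was also uncommon. Of the 46863 RXRKO H3K4me1 replicate 1 peaks that overlapped a peak in each other RXRKO library, 248 had their higher end within 20 bp of a higher end in all of them, which is 0.529%. The combination of such a shared edge with an adjoining stretch of at least 500 bp in both libraries of the other genotype alone was then counted over the genome, at either end of a peak. It occurred at 1 place for RXRKO edges, in Rxrb, and at 0 places for WT edges. The combination was defined after the Rxrb peaks had been seen, and the counts depended on its limits. With an edge tolerance of 100 bp and a stretch of at least 300 bp there were 5 places with RXRKO edges and 13 with WT edges.

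**Figure D1:**
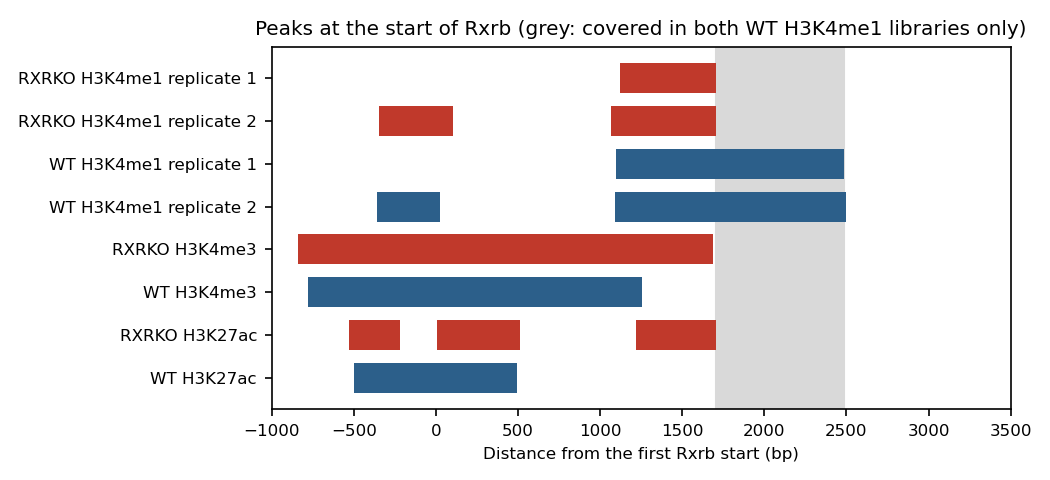
Called peaks of the 8 libraries around the first Rxrb start, by distance in bp, with RXRKO in red and WT in blue. The grey band is the 781 bp under H3K4me1 peaks in WT but under no RXRKO peak, and the RXRKO peaks of all 3 marks end at its lower edge.

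Beyond the edge the next RXRKO peaks began between 34038764 and 34039110, past the end of Rxrb. In WT the H3K4me1 peaks left 4663 bp free after the stretch in replicate 1 and 4203 bp in replicate 2. The lists hold no signal by which the presence of those bases in RXRKO could be judged. RXRKO peaks resumed at 34038764, so DNA was present there. Whether DNA was missing between the edge and that base was not tested. Where the DNA is absent, a lack of the mark and a lack of DNA cannot be told apart. The labels used here do not give the deleted exons.

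H3K4me1 covered 580 and 738 bp of the Rxrb gene body in the RXRKO libraries, against 1391 and 1431 bp in the WT libraries. Both RXRKO values lay below both WT values. The log2 difference, RXRKO minus WT, was −0.61 (SE 0.132) for the gene body and did not pass (limma, unadjusted p = 0.000915, adjusted p = 0.306). Rxrb was among the 5.85% of the 13718 gene bodies tested with an unadjusted p under 0.05. In the window with 20 kb on each side, H3K4me1 covered 8057 and 9704 bp in RXRKO, against 9398 and 10186 bp in WT. The groups overlapped, but RXRKO was the lower within each replicate pair. The window difference was −0.19 (SE 0.0763), and it did not pass (limma, adjusted p = 0.794). It was among the 5.92% of 17760 genes with an unadjusted p under 0.05, and the share of genes called at an adjusted p under 0.05 was 0%. Leaving out the 781 bp stretch, an alternative chosen after seeing the data, changed the window difference to −0.08 (SE 0.0775). By its definition the stretch took 781 bp from each WT library and nothing from either RXRKO library. The direction of this change was thus fixed in advance. The gene body then held 580 and 738 bp in RXRKO, against 610 and 650 bp in WT, so the groups overlapped.

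Before the edge, called H3K4me3 and H3K27ac reached further into Rxrb in RXRKO than in WT. H3K4me3 covered 1686 bp of the gene body in RXRKO and 1258 bp in WT. After centring each library on its median gene this ratio was 1.11, and 20.9% of the genes measured had a higher one. The RXRKO H3K4me3 peak, from 34030972 to 34033497, spanned the Rxrb start, the 121 bp before it and the start of Slc39a7, which encodes a zinc transporter and is read from the other strand. The WT peak ran from 34031035 to 34033069 over the same starts. H3K27ac covered 988 bp of the gene body in RXRKO and 494 bp in WT. An H3K27ac peak from 34033031 to 34033514, with a fold of 4.56 over the peak caller's background, was called in RXRKO alone and ended at the edge. Within 1 kb of the first start itself H3K27ac covered 814 bp in RXRKO and 994 bp in WT, the opposite order. Each of these marks has 1 library per genotype and so no test, and the RXRKO H3K4me3 list was also the longer of its pair.

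The Rxrb window is gene-dense, so part of its marks lies over other genes. It holds Ring1, a polycomb protein gene, H2-Ke6, which encodes a steroid dehydrogenase, Slc39a7, and the first part of Col11a2, a collagen gene. H3K27ac covered 5960 bp of the window in RXRKO and 3832 bp in WT, a ratio of 1.52 after centring each library on its median gene. A ratio of at least 1.5 in this direction occurred in 1.29% of the 15449 genes measured, and one as large in the other direction in 1.84%. The ratio fell under 1.5 in each of the other settings run, which gave 1.37 for the gene body, 1.49 with 5 kb flanks, 1.33 with stricter peaks and 1.46 with equal numbers of peaks. The gene body ratio comes from a mean length below the 1000 bp used as the minimum elsewhere. Regions of H3K27ac called in RXRKO alone numbered 3 of 9, against 13% of all H3K27ac regions. They were the peak at the edge and 2 sites in Col11a2, from 34040964 to 34041857 and from 34047677 to 34048012, both of which carried H3K4me1 in all 4 libraries. Over the Col11a2 gene body, H3K27ac covered 3106 bp in RXRKO and 1238 bp in WT, and H3K4me3 covered 3355 bp in RXRKO and 1355 bp in WT. H3K4me1 there covered 6922 and 7295 bp in RXRKO, against 6757 and 6641 bp in WT. The 20 kb windows of these 4 genes overlap that of Rxrb and each contain the whole WT-only stretch of Rxrb. Their H3K4me1 differences ran from −0.26 at H2-Ke6 to −0.11 at Col11a2 (limma, adjusted p from 0.735 to 0.944). These values include that stretch and are not separate from the Rxrb difference. No values without the stretch are given for these genes.

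**Figure D2:**
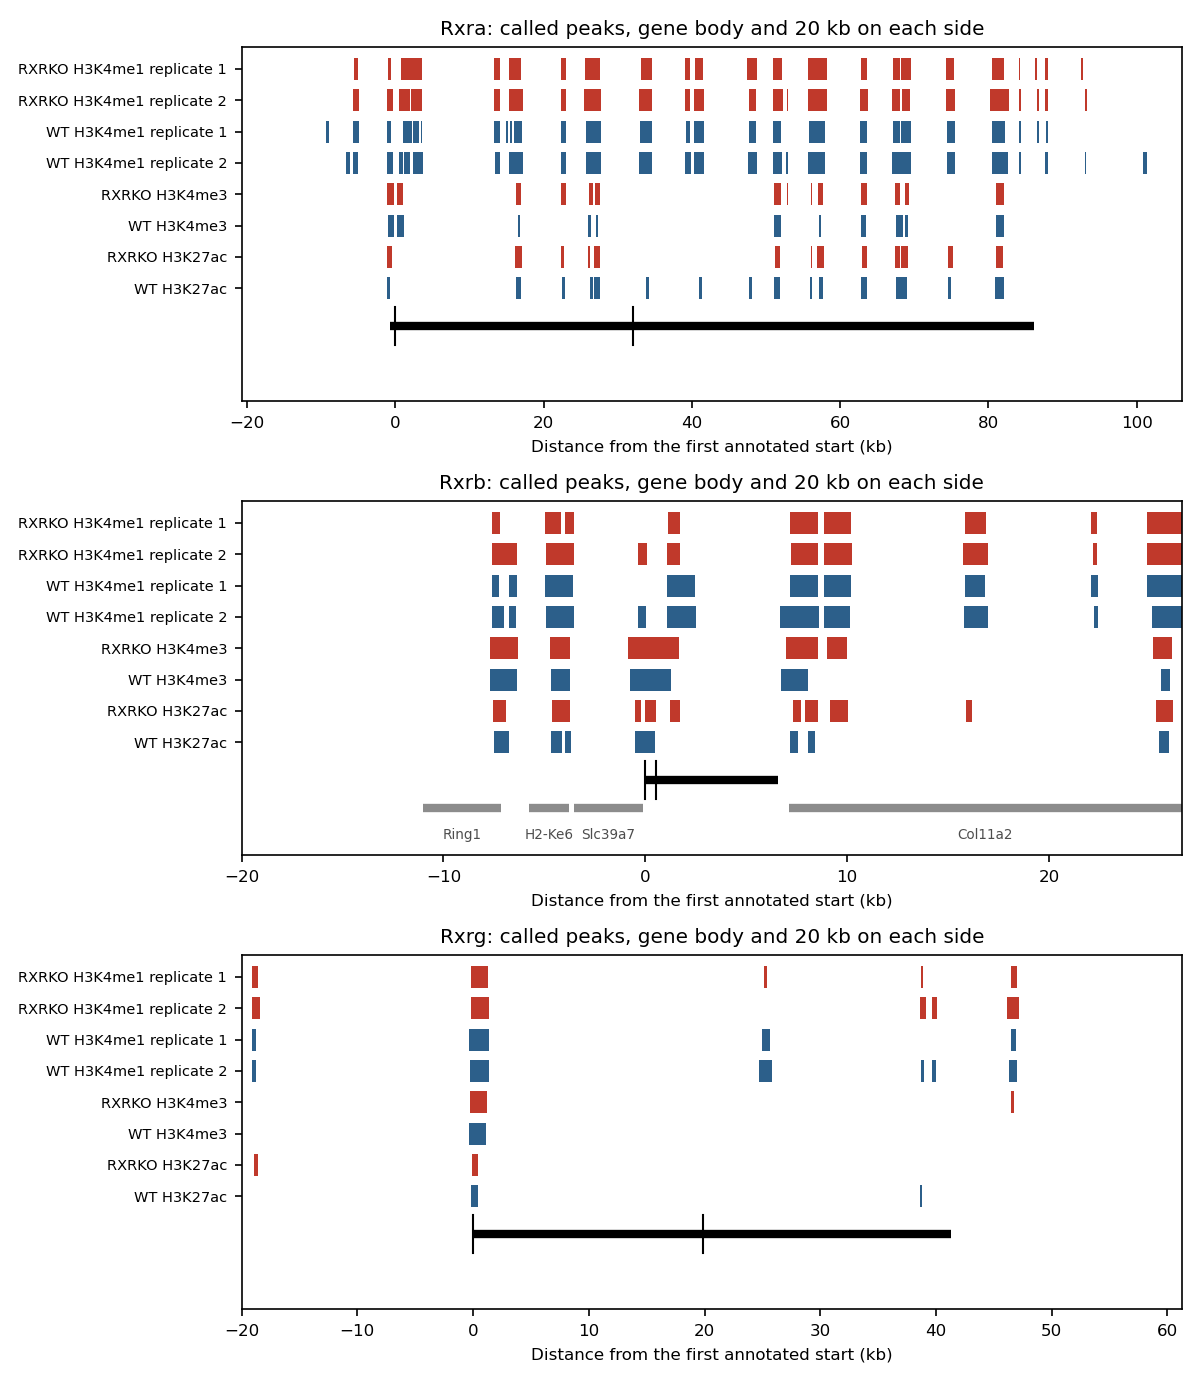
Called peaks in the windows of Rxra, Rxrb and Rxrg, by distance in kb from the first annotated start, with RXRKO libraries in red and WT libraries in blue. The black bar is the gene with its annotated starts as ticks and grey bars are other protein-coding genes; Rxra has 28 H3K4me1 regions, Rxrb 9 and Rxrg 6.

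Rxra encodes retinoid X receptor alpha and lies on chromosome 2 from 27676445 to 27763319. No difference between the genotypes passed the test there. H3K4me1 covered 24298 and 27573 bp of the Rxra window in RXRKO, against 23705 and 27173 bp in WT. The replicate 2 library was the higher in both genotypes, and the groups overlapped, with RXRKO the higher in bp within each replicate pair. The log2 difference, after centring each library on its median gene, was −0.03 (SE 0.0696), with a 95% interval from −0.19 to 0.12 (limma, adjusted p = 0.998). The longest WT-only stretch was 76 bp, and 16.3% of genes had one as long. The longest RXRKO-only stretch was 340 bp, from 27735136 to 27735475, and 3.27% of genes had one as long. There the H3K4me1 peaks ended at 27735480 and 27735475 in the RXRKO replicates, and at 27735135 and 27735133 in the WT replicates. With no WT-only stretch longer than 76 bp, the peak lists give no check of the RXRKO label at Rxra.

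Of the 28 H3K4me1 regions in the Rxra window, 19 were called in all 4 libraries, which is 67.9%, against 61.8% of the 181242 merged regions of the genome. None was called in both libraries of 1 genotype and in no library of the other, where the background was 2.17% for RXRKO and 1.94% for WT. Of the 19 shared regions, 10 overlapped H3K27ac in RXRKO and 13 in WT, against 51.1% and 57.1% of shared regions over the genome. These shares lie near the background.

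At the first Rxra start the H3K4me3 signal was called as peaks on either side of the start base, with a gap between. In RXRKO the peaks ran from 27676068 to 27677017 and from 27677443 to 27678270, and in WT from 27676140 to 27676998 and from 27677462 to 27678319. The start base, 27677201, lay in the gap in both libraries. The annotated gene begins earlier, at 27676445, a base inside the upstream H3K4me3 peak in both genotypes. The gap thus holds for the start at 27677201 and not for the first base of the annotated gene. Such a gap, with a peak within 500 bp on each side in both libraries, occurred at 170 of the 13911 starts with H3K4me3 in both, or 1.22%. The median G and C content before those 170 starts was 78%, against 60.8% for the 13911 starts and 81.2% for Rxra. The part of base composition in the gap was not tested. H3K27ac was called on the upstream side of 27677201 alone, from 27676004 to 27676783 in RXRKO and from 27676120 to 27676456 in WT. Both of these peaks included the base 27676445.

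The Rxra H3K27ac peak with the highest fold lay deep within the gene rather than at its start, in both genotypes. Folds are the authors' own for each peak and were ranked only within a list. A site from 27758157 to 27759332 in RXRKO, and from 27758228 to 27759350 in WT, had H3K4me3 folds of 7.26 and 10.9, at percentiles 67.1 and 86.7 of the RXRKO and WT lists. Its H3K27ac folds were 7.09 in RXRKO and 7.19 in WT, at percentiles 95.9 and 93.8. The H3K27ac peak at the start ranked lower, with folds of 2.78 in RXRKO and 3.88 in WT at percentiles 12.8 and 50.9. H3K4me1 at the inner site was called in all 4 libraries. Several other inner sites also carried all 3 marks in both genotypes. Among these, a site from 27739981 to 27740770 in RXRKO had an H3K4me3 fold of 7.49, the highest of the gene there. In WT its peak ran from 27739946 to 27740653 with a fold of 9.70. By −log10 q the H3K4me3 peaks at the start ranked above both inner sites named here. In RXRKO the values were 165 and 159 at the start, against 54.0 and 53.4 at the inner sites in the order given. In WT they were 91.6 and 129, against 75.3 and 49.0.

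**Figure D3:**
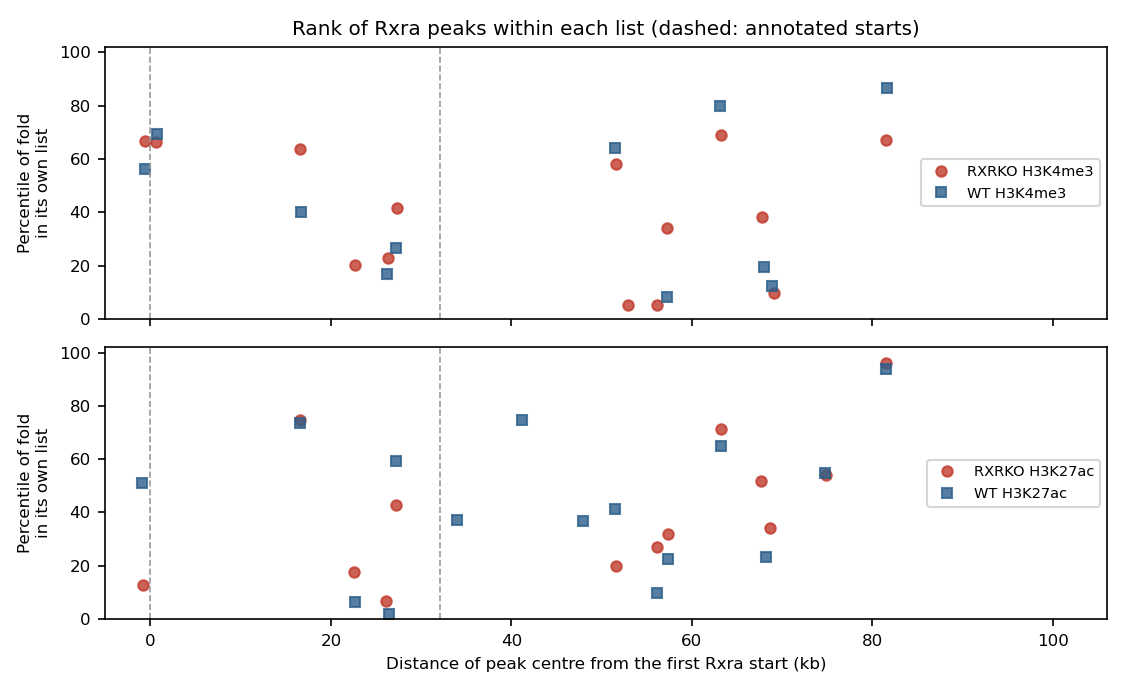
Fold of each H3K4me3 (top) and H3K27ac (bottom) peak in the Rxra window as a percentile of its own list, by distance in kb of the peak centre from the first start, with RXRKO as red circles and WT as blue squares. The last site in the gene has the highest H3K27ac percentile in both genotypes, 95.9 in RXRKO and 93.8 in WT.

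Calls of H3K27ac and H3K4me3 at Rxra were mostly shared, at shares near those of all regions. Of 16 H3K27ac regions, 11 were called in both genotypes, 1 in RXRKO alone and 4 in WT alone, against 63.2%, 13% and 23.9% of all regions. The WT-only sites included one from 27718210 to 27718498 with a fold of 5.03, at percentile 74.6 of its list, where H3K4me1 was called in all 4 libraries. Another ran from 27710988 to 27711369. Of 14 H3K4me3 regions, 11 were called in both, 3 in RXRKO alone and 0 in WT alone, against 73.6%, 22.2% and 4.22% of all regions. H3K27ac covered 9253 bp of the window in RXRKO and 9135 bp in WT, and H3K4me3 covered 9552 bp in RXRKO and 7112 bp in WT. After centring, the H3K4me3 ratio was 1.20, under the 1.5 that 1.11% of genes reached in this direction and 0.108% in the other.

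Rxrg encodes retinoid X receptor gamma and lies on chromosome 1 from 167598362 to 167639623, with no other protein-coding gene in its window. It was the least marked of the 3, yet its start carried all 3 marks in both genotypes. H3K4me1 covered 3056 and 4285 bp of the window in RXRKO, against 3159 and 4383 bp in WT. The groups overlapped, and RXRKO was the lower within each replicate pair. The log2 difference was −0.09 (SE 0.131), with a 95% interval from −0.38 to 0.20 (limma, adjusted p = 0.998). The H3K4me3 peak at the start ran from 167598069 to 167599572 in RXRKO with a fold of 10.5, and from 167597989 to 167599483 in WT with a fold of 10.8. The H3K27ac peak there ran from 167598232 to 167598775 in RXRKO with a fold of 3.47, and from 167598151 to 167598773 in WT with a fold of 4.33. H3K27ac covered 947 bp of the window in RXRKO and 835 bp in WT, a mean below the 1000 bp used as the minimum elsewhere.

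Within Rxrg, an H3K4me1 region from 167623073 to 167624185 was called over 308 bp in RXRKO replicate 1 and not in RXRKO replicate 2, against 687 and 1113 bp in WT replicates 1 and 2. The WT values lay above both RXRKO values. With peaks of a -log10 q of at least 5 alone, the RXRKO replicate 1 call was lost and a WT-only stretch of 687 bp resulted, in place of 273 bp. A stretch as long as 273 bp occurred in 3.81% of genes, and one as long as 687 bp among the stricter peaks in 0.467%. No other mark was called at this region. Of the 6 H3K4me1 regions in the window, 3 were called in all 4 libraries, which is 50%, against 61.8% of all regions.

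Per length, Rxrg lay apart from Rxra and Rxrb in H3K4me1, while all 3 genes differed in H3K4me3. H3K4me1 covered 20.4% ± 1.83 of the Rxra window in RXRKO and 20.1% ± 1.93 in WT (SD, n = 2 each). It covered 19.1% ± 2.50 of the Rxrb window in RXRKO and 21.0% ± 1.20 in WT, and 4.52% ± 1.07 of the Rxrg window in RXRKO and 4.64% ± 1.07 in WT. The Rxra and Rxrb window shares overlapped, and each exceeded Rxrg in every library. The Rxrb window, however, also holds parts of its neighbours. In the gene body alone H3K4me1 covered 27.6% ± 2.24 of Rxra and 10.0% ± 1.69 of Rxrb in RXRKO. In WT it covered 26.5% ± 2.32 of the Rxra body and 21.4% ± 0.43 of the Rxrb body. The gene body shares of Rxra and Rxrb did not overlap. The Rxra window lay above 96.4% of genes in RXRKO replicate 2 and above 96.5% in WT replicate 1, its lowest places in each genotype. For the Rxrb window the lowest places were 94.2% in RXRKO replicate 1 and 98.2% in WT replicate 1, so the places of these genes overlapped. The Rxrg window lay above 31.3% and 35.3% of genes at most, in RXRKO replicate 2 and WT replicate 2. H3K4me3 covered 17.9% of the Rxrb window in RXRKO and 12.9% in WT, and 7.53% of the Rxra window in RXRKO and 5.61% in WT. For Rxrg it was 2.17% in RXRKO and 1.84% in WT, so Rxrb led in this mark in both genotypes.

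**Figure D4:**
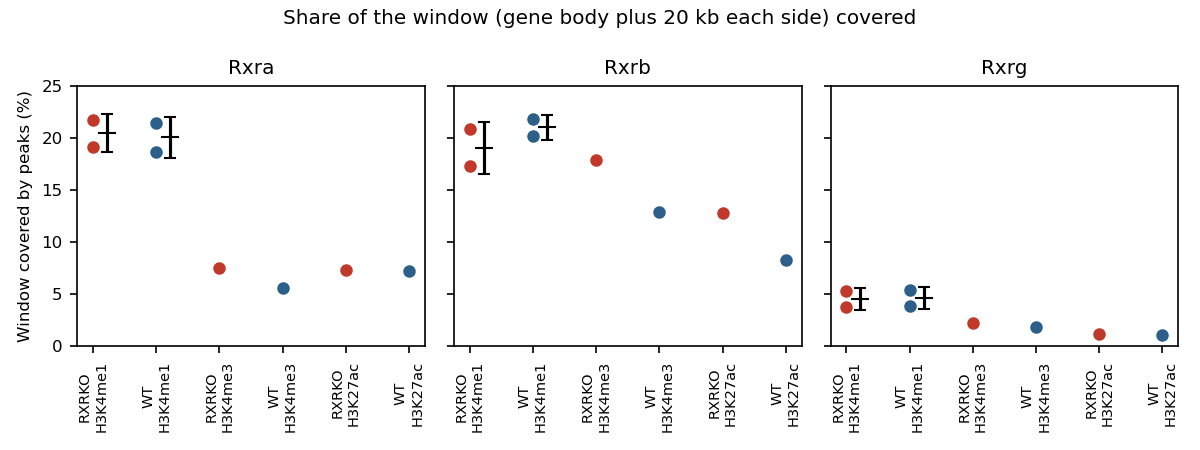
Share of each window covered by called peaks, in percent, by mark and genotype, with each point a library. Bars beside the H3K4me1 points are the mean and SD of 2 libraries; Rxrg lies below Rxra and Rxrb in every group.

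Genes whose share of covered window was closest over the 8 libraries, by Euclidean distance in percentage points, were named for each receptor gene. For Rxra they were Plxnd1 (2.03), Litaf (2.54) and Ip6k3 (2.63), against a median of 25.5 over 21630 genes. For Rxrb they were Vamp5 (4.35), Mt2 (4.42) and Pigx (4.75), against a median of 31.0. For Rxrg they were Tshz2 (0.756), Cib2 (0.791) and Galnt12 (0.829), against a median of 9.83.

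The receptors that dimerise with RXR showed no called difference in H3K4me1. Of 16 partner genes, 0 passed over all genes and 3 (18.8%) had an unadjusted p under 0.05, against 5.92% of all genes tested, with 5 above 0, 11 below 0 and a median log2 difference of −0.03. Over all 17760 genes tested the median was −0.0044. Thrb, a thyroid hormone receptor gene, had the lowest value. Its window held 22520 and 26503 bp in RXRKO, against 29904 and 31217 bp in WT, with no overlap (log2 −0.37, SE 0.0636, limma adjusted p = 0.124). Pparg, the PPAR gene of fat cell formation, held 16040 and 16681 bp in RXRKO, against 17264 and 18666 bp in WT, again without overlap (log2 −0.19, SE 0.0761, limma adjusted p = 0.802). Rarb, a retinoic acid receptor gene, held 36465 and 44947 bp in RXRKO, against 44482 and 42536 bp in WT, and these groups overlapped (log2 −0.16, SE 0.0719, limma adjusted p = 0.840). The highest partner value was +0.09 (SE 0.0845) at Nr4a1, an orphan receptor gene. At their starts, 13 of the 15 partner genes with an annotated start had H3K4me3 in RXRKO and the same number in WT, against 67.7% and 67.1% of all genes. The exceptions in both were Nr1h4 and Nr1i3, the bile acid and xenobiotic receptor genes best known from liver. H3K27ac was called at 12 of 15 in RXRKO and 13 of 15 in WT, against 58.6% and 61.6% of all genes, and Rarb was the gene called in WT alone.

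Coregulators of RXR gave 0 genes past the test out of 8, and 0 at an unadjusted p under 0.05, against 5.92% of all genes tested. Their values ran from −0.12 (SE 0.0723) at Ncoa3, a coactivator gene, to +0.08 (SE 0.0741) at its relative Ncoa1, with a median of +0.02. All 5 with an annotated start (Ncoa1, Ncor1, Med1, Ep300 and Crebbp) had H3K4me3 and H3K27ac at a start in both genotypes. Over all genes H3K4me3 was called at a start in 67.7% in RXRKO and 67.1% in WT, and H3K27ac in 58.6% and 61.6%. Fitting the replicate number as a block called 2 of 17760 genes, and none of these was a receptor, partner or coregulator gene.

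**Figure D5:**
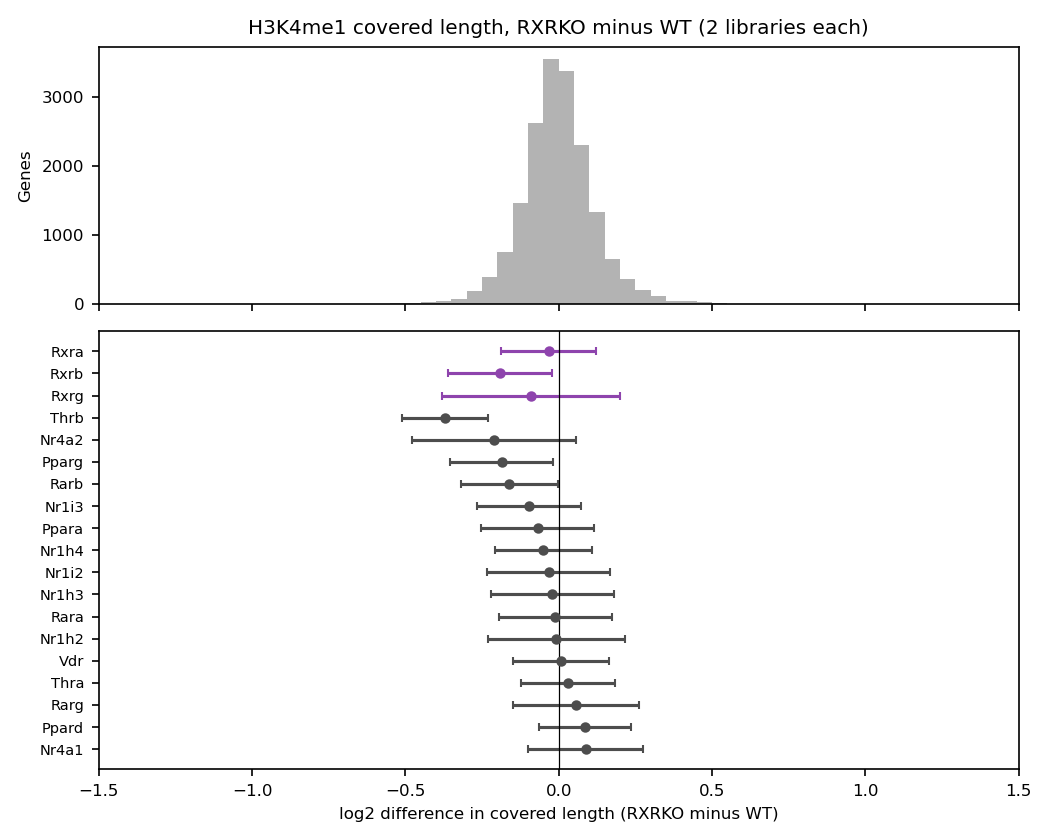
Log2 difference in H3K4me1 covered length, RXRKO minus WT, for all 17760 genes tested (top, number of genes per bin) and for the 3 RXR genes (purple) and 16 partner genes (grey) with 95% intervals (bottom). Rxrb lies at −0.19 and Thrb at −0.37, and 0 genes passed the adjusted test.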

How the data were processed

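CUT&RUN peak lists of 8 libraries were used, 1 for each library. The submitters' processing notes name cutadapt 1.7.1, Bowtie2 2.2.5, MACS3 and the mm10 build. Whether a control library or a spike-in was used, and how duplicates were handled, is not stated there. In the deposited lists the score is 10 times the −log10 q, apart from rounding, the fold is a ratio of peak height to local background, and the −log10 p and −log10 q values are the authors' own.

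Covered length was computed per gene body plus 20 kb on each side (RefSeq, GRCm38.p6), as log2 of bp plus 1000, centred on each library's median gene. Genes with a mean of at least 1000 bp were tested for H3K4me1 with limma 3.58.1 (lmFit, eBayes with trend, Benjamini-Hochberg over all genes, 0.05). H3K4me3 and H3K27ac allow no test. Regions are peaks merged on an overlap of 1 bp, and a start was called with a peak within 1 kb. Starts came from RefSeq for 17274 of 21631 genes. The functions were tested on simulated data. The rule named the 3 members, their neighbours, partners and coregulators at an unadjusted p under 0.05 or at the ends of their lists, and the 3 closest genes. Members and lists were chosen with earlier results of these data known. Run tags in the peak names set the H3K4me1 replicate 1 libraries apart as a run of their own, so the replicate number marks the run and pairs these libraries. The difference of replicate 2 minus replicate 1 in RXRKO correlated with that in WT with r = 0.212 across genes. The reported fit left the replicate number out, so differences between runs are part of its error. SEs, intervals and p-values come from that fit except where the block is named, and gene bodies were not fitted with the block. Whether replicates came from separate pools of mice is not labelled, so p-values measure the spread between libraries.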

Additional observations from a re-analysis of the deposited data

How the results depend on the processing

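The H3K4me1 differences of Rxra, Rxrb and Rxrg stayed short of the threshold under every alternative run. Leaving out each library in turn gave −0.092 to 0.027 for Rxra, −0.21 to −0.17 for Rxrb and −0.24 to 0.060 for Rxrg. The sign of Rxra turned without WT replicate 2 (0.027), with 50 kb flanks (0.012) and with no centring (0.027), and that of Rxrg without WT replicate 2 (0.060). The count of genes called, 0 in the reported fit, was 0 to 98 on leaving out a library, where a lone library is assumed to vary like the others. It was 0 without RXRKO replicate 2, 98 without RXRKO replicate 1, 88 without WT replicate 1 and 13 without WT replicate 2. It was 2 with the replicate block, 2 with a -log10 q of at least 5, 204 with no filter on length and 65 with no centring. The replicate block changed no call of a member, partner or coregulator, and gave Rxrb an adjusted p of 0.496 by limma. The cause of these changes was not tested. With the stretch left out, the Rxrb gene body had a mean under 1000 bp and was not tested.

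The WT-only stretch of Rxrb was 781 to 791 bp on leaving out a WT library and 781 bp in the other settings. That of Rxra was 144 to 193 bp on leaving out a WT library, and that of Rxrg 273 to 403 bp, and 687 bp with a -log10 q of at least 5. On leaving out a library, regions called in every remaining RXRKO library and no WT library numbered 0 to 2 for Rxra and 0 to 1 for Rxrg. The share over all regions was then 4.52% to 11.4%. Regions called in every remaining WT library and no RXRKO library numbered 0 to 2 for Rxra, 0 to 1 for Rxrb and 0 to 1 for Rxrg. Their share over all regions was 3.59% to 7.16%. With a -log10 q of at least 5, 1 region was called in both WT libraries alone for Rxrg, against 1.67% of all regions.

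For H3K4me3, the centred log2 difference of Rxra was 0.26 as reported, 0.38 with a -log10 q of at least 5 and 0.18 with equal numbers of peaks. That of Rxrb was 0.29 as reported, 0.33 with 5 kb flanks, 0.15 in the gene body and 0.35 with equal numbers of peaks. For H3K27ac, Rxrb had 0.61 as reported, 0.57 with 5 kb flanks, 0.45 in the gene body, 0.41 with a -log10 q of at least 5 and 0.55 with equal numbers of peaks. Rxrg had 0.17 as reported, −0.20 with 5 kb flanks, −0.16 in the gene body and −0.29 with a -log10 q of at least 5. The H3K27ac gene body value of Rxrb and these Rxrg values come from mean lengths below the 1000 bp minimum. Read depth is unknown, so it cannot be said which uncalled sites lay below detection.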
